A study of Mus musculus with 6 samples.

Results

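Costimulatory and checkpoint molecules of the B7 and CD28 families, together with the TNF receptor Cd40, were followed in lung RNA of mice that cannot modify the RNA-binding protein RBM47 at its usual site. The group consists of 10 of the 56262 genes in the deposited count table. It holds 5 ligands (Cd274, Pdcd1lg2, Icosl, Cd80 and Cd86), 4 receptors (Pdcd1, Ctla4, Cd28 and Icos) and Cd40, chosen by name. All 10 were found, and 9 had enough counts to be tested, the exception being Pdcd1. R/R mice are C57BL/6 animals made by CRISPR/Cas that carry the RBM47 substitutions K329R and K332R on both alleles and in every tissue, so the modifier ISG15 cannot be joined to these lysines. They were compared with WT littermates, 3 lungs a group, all 8 weeks of age and untreated. The study sequenced these lungs to look for molecular changes behind the more severe lung injury that it describes in R/R mice after lipopolysaccharide (LPS). RNA came from whole lung, so each value is summed over epithelial, endothelial, stromal and immune cells, and fewer cells of a type cannot be told apart from less RNA per cell.

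T cells need a costimulatory signal beside that of the antigen receptor. Cd80 and Cd86 on antigen-presenting cells give it through Cd28, whereas Ctla4 binds the same ligands and restrains the cell. Icosl acts through Icos on activated T cells, Cd274 (PD-L1) and Pdcd1lg2 (PD-L2) inhibit through Pdcd1 (PD-1), and Cd40 is the receptor on B cells, dendritic cells and macrophages through which T cell help is received.

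Cd28, Ctla4, Icos and Cd40 carry short coding stretches that take part in binding their partners. Those of Cd28 and Ctla4 are shown because these receptors share their ligands, and those of Icos and Cd40 are set beside them. Capitals mark the codons of the loop that binds the B7 ligands in Cd28 and Ctla4 (named MYPPPY after its residues), of the corresponding loop of Icos (FDPPPF), and of the TRAF-binding site in the tail of Cd40 (PVQET). The sequences are those of the reference transcripts (GRCm38, GENCODE M21), all on the plus strand. They lie in exon 2 of 4 of Cd28 (chr1:60763269-60763298), exon 2 of 4 of Ctla4 (chr1:60912707-60912736), exon 2 of 4 of Icos (chr1:60993977-60994006) and exon 9 of 9 of Cd40 (chr2:165070788-165070814).
Cd28: gagttcATGTACCCTCCGCCTTACctagac
Ctla4: gaactcATGTACCCACCGCCATACtttgtg
Icos: tccattTTTGACCCACCTCCTTTTcaagaa
Cd40: gctgctCCAGTGCAGGAGACGctgcac

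The promoter of Icosl is shown because Icosl differed most among the ligands. RefSeq promoters (GRCm38.p6, 250 bases before to 50 after the start) were found for 6 of the 10 genes, and not for Cd28, Icos, Cd86 and Cd40. Capitals in the Icosl promoter, chr10:78069118-78069417 on the plus strand, mark a match to GGGANNNNCC, a simple form of the site of NF-kB.
Icosl promoter: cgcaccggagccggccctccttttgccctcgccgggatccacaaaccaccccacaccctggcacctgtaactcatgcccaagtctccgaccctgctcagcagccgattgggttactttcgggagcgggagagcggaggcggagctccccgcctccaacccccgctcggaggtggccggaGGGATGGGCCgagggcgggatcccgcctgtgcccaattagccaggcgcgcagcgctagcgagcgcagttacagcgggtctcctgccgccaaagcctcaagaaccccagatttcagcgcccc

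On both strands this motif was present in 3 of the 6 promoters, those of Icosl, Cd80 and Pdcd1lg2, and in 20.7% of all 32841 promoters searched. In Icosl it began 71 bases before the start. The interferon-response motifs GAAANNGAAA (ISRE) and TTCNNNGAA (GAS) were in 0 of the 6 and in 3.44% and 8.3% of all promoters. These are matches of letters in a short window, and they do not show where a factor binds.

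The libraries held 16501092 to 18141067 counted read pairs, so that a single count was worth between 0.05519 and 0.06074 CPM (counts relative to the library total, scaled by edgeR's TMM factors). Genotypes were compared by the quasi-likelihood test of edgeR, and p-values were adjusted by Benjamini-Hochberg over the 17120 genes tested. A gene was called at an adjusted p under 0.05, and fold changes are given as log2 of R/R over WT. Of all tested genes 1.75% were called, 1.1% as lower and 0.648% as higher in R/R lungs, and for 18.7% the CPM of the groups did not overlap.

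Levels of the 10 genes in whole lung were compared per kb of exon. Cd40 (mean of the 6 lungs 6.95 CPM per kb), Icosl (6.93) and Cd274 (5.67) were the most abundant. Cd86 followed at 1.62, and then Icos at 0.796, Cd28 at 0.68, Cd80 at 0.673 and Pdcd1lg2 at 0.515. The inhibitory receptors Ctla4 and Pdcd1 were lowest, at 0.29 and 0.17.

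Among neighbours in this order, the ranges over the lungs were separate between Cd274 and Cd86, between Cd86 and Icos, and between Pdcd1lg2 and Ctla4. The other neighbours overlapped, and Cd40 was above Icosl in 3 of the 6 lungs. The ligands Icosl, Cd274 and Cd86 and the receptor Cd40 thus lay above all 4 receptors of the CD28 family, which T cells carry, whereas Cd80 and Pdcd1lg2 were near the level of Cd28.

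**Figure D1:**
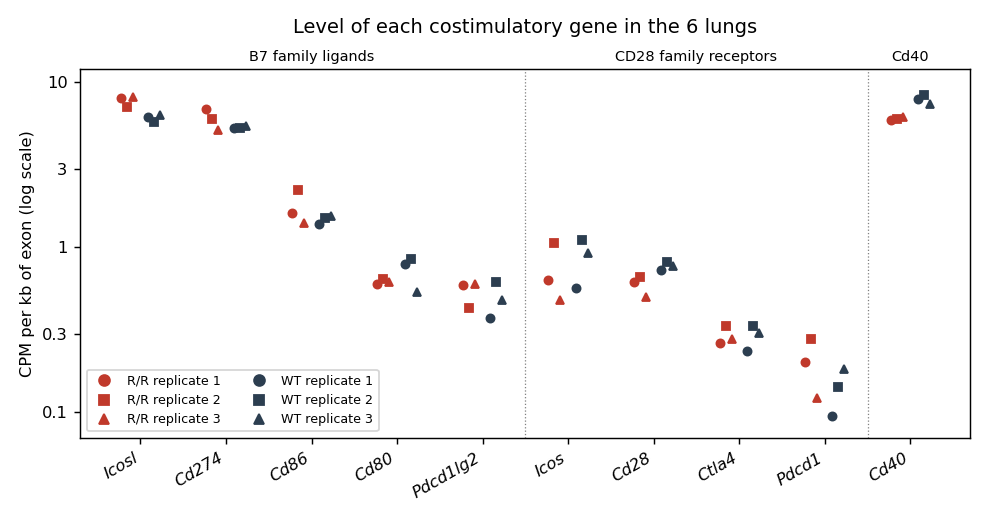
Levels of the 10 genes in each lung as CPM per kb of exon (vertical log axis), with R/R lungs in red and WT lungs in blue. Cd40, Icosl and Cd274 stand above the other genes, Pdcd1 and Ctla4 are lowest, and only Cd40, Icosl and Cd28 have no overlap between the groups.

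In R/R lungs Cd40 fell, Icosl was higher by an amount just short of the threshold, and the other 7 tested genes did not pass the test. Of the 9 tested genes 5 were higher and 4 lower, their median log2 fold change being 0.0, the same as over all genes tested (0.0). The 1 call in these 9 genes, 11.1% of them, stands beside 1.75% of all tested genes. The groups did not overlap for 3 of the 9 genes, beside 18.7% of all tested genes.

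Of the 5 ligands, 4 were higher and 1 lower in R/R lungs (median log2 fold change 0.17), and 0 were called by edgeR. A single ligand, Icosl, was below an unadjusted p of 0.05, and DESeq2 called it. Icosl (ENSMUSG00000000732.9, chr10:78069302-78083913, plus strand), the only ligand of Icos, was at 37.2, 32.8 and 37.8 CPM in R/R lungs and at 28.5, 26.6 and 29.3 CPM in WT lungs. All R/R lungs were above all WT lungs. The mean was 35.9 ± 2.73 CPM against 28.1 ± 1.37 CPM (SD, n = 3 each), a ratio of 1.28 (two-sided exact permutation p = 0.1, the least that 3 lungs against 3 can give). The log2 fold change was 0.35 (standard error 0.08, 95% confidence interval 0.17 to 0.53), with an adjusted p of 0.0573 in edgeR.

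Cd274, the inhibitory ligand of Pdcd1 (ENSMUSG00000016496.7, chr19:29367455-29388095, plus strand), was at 25.1, 21.6 and 18.6 CPM in R/R lungs and at 19.1, 19.2 and 19.6 CPM in WT lungs. R/R replicates 1 and 2 were above all WT lungs and R/R replicate 3 was below all of them. The spread among R/R lungs (SD 3.24 CPM around a mean of 21.8, n = 3) was larger than that among WT lungs (SD 0.259 around 19.3, n = 3), and the log2 fold change was 0.17 (95% confidence interval -0.06 to 0.41, adjusted p = 0.524, edgeR). Counting took no account of strand, and Cd274 shares 511 bases of exon with the antisense gene AC119228.1, so reads from these bases cannot be assigned to either gene. That gene had a log2 fold change of -0.03.

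Cd86 (ENSMUSG00000022901.13, chr16:36603869-36666081, minus strand), which costimulates through Cd28, was at 5.94, 8.13 and 5.12 CPM in R/R lungs and at 5.1, 5.52 and 5.68 CPM in WT lungs. The groups overlapped, with R/R replicate 2 highest of all lungs. The log2 fold change was 0.23 (95% confidence interval -0.18 to 0.65, adjusted p = 0.65, edgeR).

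Its partner Cd80 (ENSMUSG00000075122.5, chr16:38455561-38496335, plus strand) was the only ligand with a lower mean in R/R lungs. Its counts were 40, 40 and 39 in R/R lungs and 48, 57 and 34 in WT lungs. The R/R lungs were nearly equal and lay between the extremes of the WT lungs (log2 fold change -0.22, 95% confidence interval -0.75 to 0.31, adjusted p = 0.755, edgeR). The difference between Cd80 and Cd86 in direction was not tested.

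Pdcd1lg2 (ENSMUSG00000016498.10, chr19:29410919-29471161, plus strand), the other ligand of Pdcd1, had counts of 21, 14 and 20 in R/R lungs and of 12, 22 and 16 in WT lungs. The sums were 55 and 50, a depth-scaled ratio of 1.1 with an exact 95% counting interval of 0.735 to 1.64. The highest and the lowest lung were both WT, and counts of this size could not show a small difference. Its log2 fold change of 0.14 (adjusted p = 0.908, edgeR) turned to -0.02 without WT replicate 1. Cd274 was higher than Pdcd1lg2 per kb by a mean factor of 11.4 in both groups.

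The receptors gave smaller counts. Of the 3 tested, 1 was higher and 2 lower in R/R lungs (median log2 fold change -0.26), and 0 were called by edgeR or limma-voom, and 0 were below an unadjusted p of 0.05. DESeq2 called neither Cd28 nor Icos and gave no adjusted p for Ctla4. Cd28, the receptor for the primary costimulatory signal (ENSMUSG00000026012.2, chr1:60716800-60773359, plus strand), was at 3.77, 4.07 and 3.06 CPM in R/R lungs and at 4.43, 4.97 and 4.68 CPM in WT lungs. No R/R lung reached the lowest WT lung (two-sided exact permutation p = 0.1). The mean was 3.63 ± 0.516 CPM against 4.69 ± 0.267 CPM (SD, n = 3 each). The log2 fold change of -0.37 was about as large as that of Cd40 but had a wider 95% confidence interval, from -0.78 to 0.04 (standard error 0.19, adjusted p = 0.406, edgeR), on 52 to 90 counts a lung.

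Icos, which sustains activated T cells (ENSMUSG00000026009.14, chr1:60977927-61000320, plus strand), had counts of 39, 61 and 28 in R/R lungs and of 32, 69 and 54 in WT lungs. It varied more within the groups than between them, with R/R replicate 3 and WT replicate 1 both low (log2 fold change -0.26, 95% confidence interval -0.98 to 0.45, adjusted p = 0.787, edgeR). The lungs with much Icos tended to have much Ctla4, the inhibitory counterpart of Cd28 (Pearson's r of log2 CPM 0.84 over the 6 lungs, given as a description). This was the highest positive value among all pairs of the tested members. It rests on 9 to 14 counts of Ctla4 a lung, where counting error is large, so it does not show that the genes vary together.

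Ctla4 itself (ENSMUSG00000026011.13, chr1:60887000-60915832, plus strand) had counts of 11, 13 and 11 in R/R lungs and of 9, 14 and 12 in WT lungs. Both groups summed to 35 counts, a ratio of 0.999 with an exact 95% counting interval of 0.607 to 1.64. Equal sums therefore still leave room for a difference of more than 1.5-fold in either direction.

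Pdcd1 (ENSMUSG00000026285.7, chr1:94038305-94052553, minus strand), the receptor of both inhibitory ligands, had counts of 7, 9 and 4 in R/R lungs and of 3, 5 and 6 in WT lungs, too few to enter the test. The groups overlapped, and the sums of 20 and 14 gave a ratio of 1.43 with an exact 95% counting interval of 0.685 to 3.05. These intervals cover counting error only.

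Cd40 (ENSMUSG00000017652.16, chr2:165055627-165072948, plus strand) was the gene that fell. It was at 20.1, 20.5 and 21.1 CPM in R/R lungs and at 26.9, 28.4 and 25 CPM in WT lungs. The groups did not overlap, and the R/R lungs lay closer together than the WT lungs. The mean of 20.6 ± 0.475 CPM against 26.8 ± 1.72 CPM (SD, n = 3 each) fell by 23.2% (two-sided exact permutation p = 0.1). The log2 fold change was -0.38 (standard error 0.08, 95% confidence interval -0.56 to -0.20), with an adjusted p of 0.0444 in edgeR.

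The call of Cd40 was close to the threshold. It was lost with limma-voom (adjusted p = 0.0528) and in edgeR with the replicate number as a block (0.0519). Leaving out any 1 of 5 lungs lost it too, namely R/R replicates 1, 2 and 3 and WT replicates 1 and 2 (0.116, 0.141, 0.0901, 0.156 and 0.179, edgeR). The log2 fold change stayed between -0.43 and -0.34. Icosl passed without WT replicate 3 (adjusted p = 0.0461, edgeR), as it did with DESeq2 (0.0319). In edgeR it also passed with no filter on low counts (0.00537) and with the replicate block (0.0426). Cd40 and Icosl thus differed in call but had log2 fold changes of like size, standard error and permutation p, in opposite directions.

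**Figure D2:**
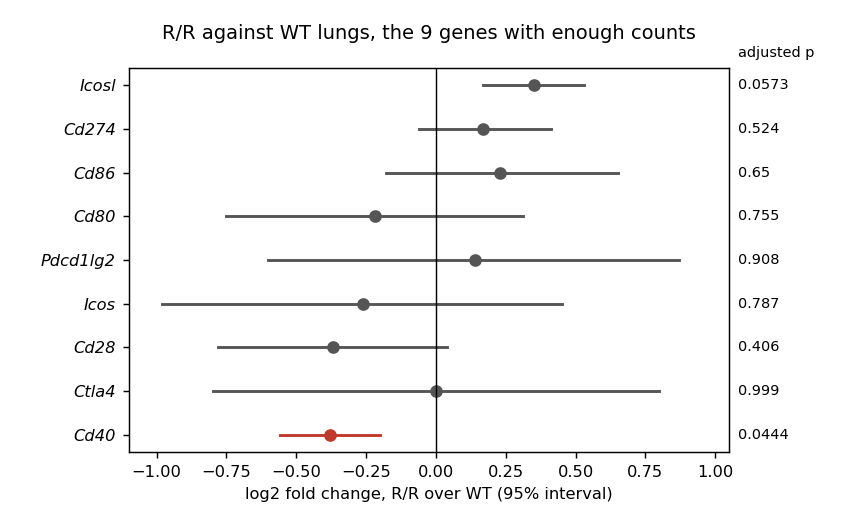
Log2 fold changes of R/R over WT for the 9 tested genes (points) with 95% confidence intervals (bars), ordered by role as ligands, receptors and Cd40. The intervals of Cd40 and Icosl lie on either side of 0 without reaching it, and those of the other 7 genes include 0.

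Set against each other, the ligands summed to a higher level in R/R lungs and the receptors did not. The summed level of the 5 ligands was 17.8, 16.4 and 15.9 CPM per kb in R/R lungs and 14.0, 14.0 and 14.3 in WT lungs, and the groups did not overlap. Most of this difference came from Icosl, which was separate by itself, at means of 7.77 against 6.09 CPM per kb. Cd274, which overlapped between the groups, was at means of 6.01 against 5.33. Without both genes the sum was 2.91 ± 0.346 against 2.7 ± 0.241 CPM per kb (SD, n = 3 each), with overlap. The summed level of the 4 receptors was 1.71, 2.34 and 1.38 CPM per kb in R/R lungs and 1.62, 2.4 and 2.17 in WT lungs, and the groups overlapped. The contrast of ligands with receptors was not tested.

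The balance of single genes was read as a ratio per lung, on levels per kb, for ligands with their receptors and for other pairs. Of 12 pairs of these genes and Cd40lg, 3 did not overlap between the groups. Only Cd86 to Cd28 among them is a ligand with its receptor, the others being Cd28 to Ctla4 and Icosl to Cd40. Each holds a gene (Cd28, Icosl or Cd40) that was already separate by itself. Cd86 to Cd28 was 2.63, 3.34 and 2.8 in R/R lungs and 1.92, 1.86 and 2.03 in WT lungs. These did not overlap, although the fold changes of Cd86 and of Cd28 did not pass the test singly, and the ratio has no test of its own. Icosl to Icos, at 12.8, 6.67 and 17.0 against 10.9, 5.19 and 6.87, overlapped, with a wide spread within both groups.

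The balance of the activating Cd28 to the inhibitory Ctla4 was lower in R/R lungs, at 2.35, 1.99 and 1.8 against 3.09, 2.45 and 2.54, without overlap but on a small number of Ctla4 counts. Cd274 to Pdcd1 had means of 32.6 in R/R and 40.9 in WT lungs, with overlap. Cd80 to Cd28 overlapped as well, at means of 1.06 and 0.946. Icosl to Cd40 was 1.36, 1.18 and 1.32 in R/R lungs and 0.78, 0.69 and 0.863 in WT lungs. Both genes were separate singly, in opposite directions, so their ratio could not overlap. Per kb of exon, Icosl was above Cd40 in all R/R lungs and below it in all WT lungs. This order depends on the scaling by length. By raw counts Icosl was above Cd40 in WT replicates 1 and 3 as well (ratios of 1.06 and 1.17, with 0.936 in WT replicate 2).

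Some lists of cell type markers differed between the groups as well, and others did not. All 11 tested B cell markers were lower in R/R lungs, 7 of them called, their median log2 fold change being -0.61 and their summed level 213 to 275 CPM against 362 to 443 CPM. All 12 T cell markers were lower and 0 were called by edgeR (8 at an unadjusted p under 0.05, 3 called by DESeq2 and 0 by limma-voom, median -0.63, 51.2 to 63.8 CPM against 76.4 to 103 CPM). Alveolar macrophage markers were higher in 9 of 10 cases, 2 of them called (median 0.38, 1020 to 1160 CPM against 722 to 913 CPM), and alveolar epithelial markers in 9 of 10, 1 of them called (median 0.14, 24100 to 25600 CPM against 19600 to 23600 CPM). Endothelial markers, higher in 4 of 10 cases, overlapped in sum at 5640 to 5830 CPM against 5530 to 6050 CPM, with 0 called by edgeR (2 at an unadjusted p under 0.05, 1 called by DESeq2 and 0 by limma-voom). The gene Car4 is in both the endothelial and the alveolar macrophage list, so these sums are not fully separate. NK cell markers, higher in 5 of 8 cases, overlapped at 35.7 to 48.5 CPM against 26.9 to 54.6 CPM, with 0 called by edgeR, DESeq2 or limma-voom. Fibroblast markers, higher in 3 of 8, overlapped at 3590 to 4120 CPM against 3860 to 4250 CPM. Of these 0 were called by edgeR or limma-voom and 1 by DESeq2.

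Markers of blood and of myeloid cells differed too. All 6 blood and red cell markers were lower in R/R lungs, 1 of them called (median -0.72, 1170 to 2220 CPM against 2420 to 3220 CPM, without overlap). All 7 tested neutrophil markers were lower, with 0 called by edgeR or limma-voom, 2 by DESeq2 and 7 at an unadjusted p under 0.05 (median -1.12), but their sums overlapped, at 77.6 to 111 CPM against 81 to 224 CPM. Monocyte and interstitial macrophage markers were lower in 8 of 12 cases and 1 was called as higher (median -0.09), with sums of 1870 to 1920 CPM against 1930 to 2070 CPM. The part of blood content in the levels of Cd28, Icos and Cd40 was not tested.

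Cd40, which B cells carry, was at 73.2, 77.8 and 99.2 CPM per 1000 CPM of B cell markers in R/R lungs and at 60.7, 78.5 and 66.7 in WT lungs. On this scale the groups overlapped, and the lowest lung was WT replicate 1. Against dendritic cell markers, of which 5 of 12 were higher, 7 lower and 0 called by edgeR, DESeq2 or limma-voom (3 at an unadjusted p under 0.05, summed level 196 to 217 CPM against 211 to 233 CPM), the same ratio was 92.7, 104 and 108 in R/R lungs and 115, 131 and 119 in WT lungs, without overlap. Per 1000 CPM of endothelial markers Cd40 was at 3.45, 3.58 and 3.74 in R/R lungs and at 4.45, 4.74 and 4.52 in WT lungs, also without overlap. The part of B cell number in the fall of Cd40 was not tested.

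Cd28, a T cell gene, was at 59.2, 65.1 and 59.8 CPM per 1000 CPM of T cell markers in R/R lungs and at 52.9, 65.0 and 45.5 in WT lungs, and the groups overlapped on this scale. Icos overlapped likewise, at 33.9, 58.4 and 32.2 against 23.2, 49.8 and 30.7. Icosl, found on antigen-presenting and some tissue cells, was at 32.0, 32.0 and 34.3 CPM per 1000 CPM of alveolar macrophage markers in R/R lungs and at 39.4, 36.4 and 32.1 in WT lungs. It also overlapped per 1000 CPM of alveolar epithelial markers, at 1.45, 1.3 and 1.56 against 1.46, 1.25 and 1.24, and the part of these cells in the level of Icosl was not tested. The groups stayed apart per 1000 CPM of endothelial markers, at 6.38, 5.71 and 6.7 against 4.71, 4.43 and 5.29, of monocyte and interstitial macrophage markers, at 19.3, 17.5 and 20.2 against 13.8, 12.9 and 15.2, and of B cell markers, at 135, 124 and 178 against 64.2, 73.5 and 78.1.

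**Figure D3:**
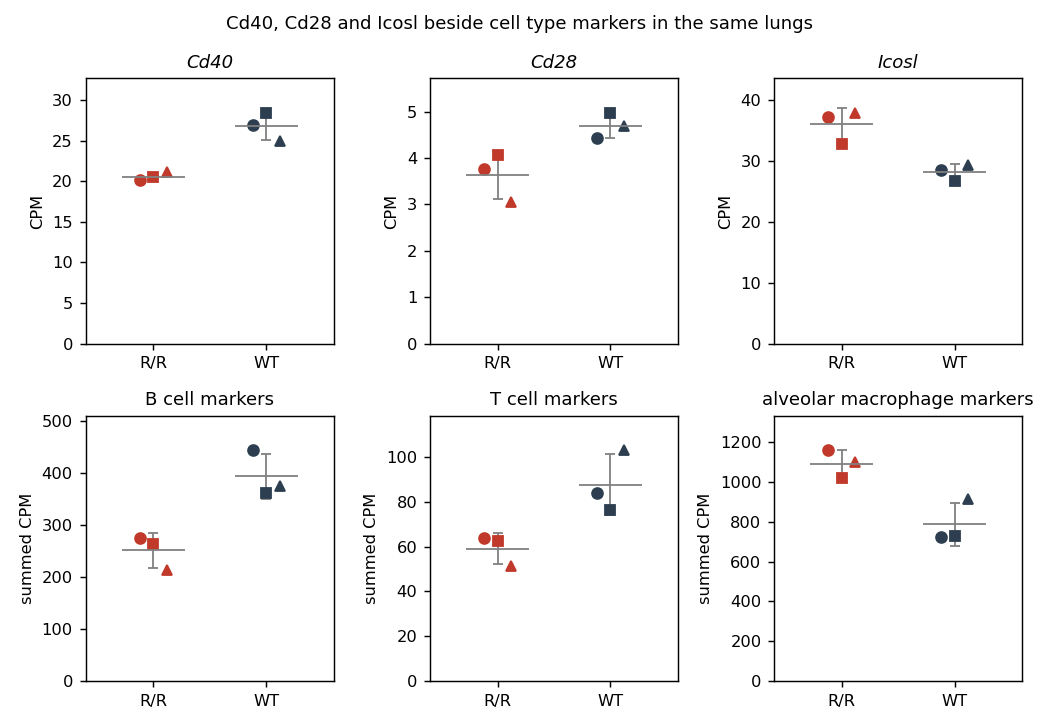
CPM of Cd40, Cd28 and Icosl (upper panels) and summed CPM of B cell, T cell and alveolar macrophage markers (lower panels) in each lung, with circles, squares and triangles for replicates 1, 2 and 3 and lines for the mean and SD (n = 3). Cd40 and Cd28 are lower in R/R lungs, as are the B cell and T cell markers, and Icosl is higher, as are the alveolar macrophage markers.

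Markers of lymphoid organs, which hold many lymphocytes, were read as well. The thymus markers Rag2 and Foxn1 were at 0 in all 6 lungs, and Rag1, Ptcra, Dntt, Psmb11 and Aire stayed under 10 counts. Of the lymph node and follicle markers Glycam1 was at 0 and Ccl19, Ccl21a and Madcam1 stayed under 10 counts in every lung. The genes of this list summed to 11.5 to 14.3 CPM in R/R lungs and 17.0 to 22.3 CPM in WT lungs, 1 of the 2 tested being called as lower, and their part in the levels of Cd28 and Cd40 was not tested.

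Further members of the same pathways were read from lists of known genes, some of which, such as Cd5, also mark T cells. Among the other B7 and butyrophilin-like genes, 2 of 8 tested were higher and 6 lower (median -0.21), and 1 was called in each direction. Btla, an inhibitory receptor of B and T cells, was at 18.2, 17.5 and 13.8 CPM in R/R lungs and 27.7, 22.7 and 24.6 CPM in WT lungs, and its log2 fold change was -0.60 (SE 0.12, adjusted p = 0.0319, edgeR). Ildr2, a B7-like protein, was at 15.5, 10.3 and 9.9 CPM in R/R lungs and 3.46, 5.52 and 6.62 CPM in WT lungs, and its log2 fold change was 1.19 (SE 0.23, adjusted p = 0.0319, edgeR). Neither gene overlapped between the groups. Vsir (VISTA), a ligand that restrains T cells, had a log2 fold change of -0.26 (adjusted p = 0.134, edgeR).

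Among the remaining checkpoint receptors and ligands, 10 of 15 tested were higher and 5 lower (median 0.13). Cd200, which restrains myeloid cells, rose from 106, 118 and 122 CPM in WT lungs to 156, 151 and 136 CPM in R/R lungs (log2 fold change 0.35, adjusted p = 0.0341, edgeR). Ceacam1, an inhibitory adhesion molecule, fell from 85, 81.3 and 88.5 CPM to 69.4, 66.4 and 65.9 CPM (log2 fold change -0.34, adjusted p = 0.0213, edgeR). The groups of both genes were separate. Lgals9, a ligand of the receptor Tim-3, did not pass (log2 fold change -0.20, adjusted p = 0.108, edgeR).

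Of the TNF family partners of T cell costimulation 4 of 8 tested genes were higher and 4 lower (median -0.01), with 0 called by edgeR, DESeq2 or limma-voom and 0 at an unadjusted p under 0.05 (DESeq2 gave no adjusted p for Tnfrsf9). Tnfsf9, Cd27 and Tnfsf8, the lowest in p, had log2 fold changes of 0.42, -0.33 and -0.46 (adjusted p = 0.605, 0.428 and 0.631, edgeR). Cd40lg, the ligand of Cd40, was too low to test, with counts of 15, 5 and 1 in R/R lungs and of 7, 10 and 12 in WT lungs.

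Downstream of Cd40, 7 of 15 signaling genes were higher and 8 lower (median -0.01), and 0 were called by edgeR, DESeq2 or limma-voom, with 1 at an unadjusted p under 0.05. The lowest p among them were those of Nfkbia, an inhibitor of NF-kB, at 0.31, and of Nfkb2 and Traf3, which serve the noncanonical pathway, at -0.19 and -0.13 on the log2 scale (adjusted p = 0.307, 0.373 and 0.367, edgeR). Of 14 regulators of Cd274, 6 were higher and 8 lower (median -0.01), again with 0 called by any of these tools and 1 at an unadjusted p under 0.05. Among those with the lowest p were Irf9, which carries interferon signals, at -0.26, and Cmtm4, which stabilises the protein, at 0.08 (adjusted p = 0.129 and 0.571, edgeR).

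Genes of T cell signaling and adhesion were mostly lower, whereas 48.8% of all tested genes were lower. The T cell markers, which share Lck and Cd5 with these lists, were lower by a larger median (-0.63). The part of T cell number was not tested. In the first list below 4.17% were called, beside 1.75% of all tested genes. Of 24 genes of CD28 and antigen receptor signaling 19 were lower (median -0.14) and 1 was called, Ptpn6, a phosphatase that damps receptor signals, at 56.8, 52.4 and 56.3 CPM in R/R lungs and 68.6, 65.0 and 68.2 CPM in WT lungs. Its groups did not overlap, and the log2 fold change was -0.29 (SE 0.06, adjusted p = 0.0444, edgeR). The call was lost with limma-voom (0.0502) and without any 1 of the 6 lungs (0.0609 to 0.164). Lcp2 and Vav1, adaptor and exchange factor of the same pathway, had log2 fold changes of -0.36 and -0.34 (adjusted p = 0.135 and 0.14, edgeR). Of 14 genes of the CD2 and SLAM families and adhesion 11 were lower (median -0.21) and 0 were called by edgeR or limma-voom and 1 by DESeq2, which gave no adjusted p for Sh2d1a (5 at an unadjusted p under 0.05), with Cd5, Cd6 and Itgal at -0.75, -0.85 and -0.36 (adjusted p = 0.0901, 0.154 and 0.0786, edgeR).

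Of 14 genes of regulatory and exhausted T cells 11 were lower (median -0.23). The 1 called was Tcf7, a transcription factor of naive and memory T cells, at 43.1, 45.6 and 37.8 CPM in R/R lungs and 60.8, 59.1 and 60.6 CPM in WT lungs. The WT lungs were nearly equal and all above the R/R lungs (log2 fold change -0.51, SE 0.08, adjusted p = 0.00918, edgeR). Prdm1 and Cxcr5, which act in effector and in follicular T cells, had log2 fold changes of -0.33 and -0.38 (adjusted p = 0.206 and 0.398, edgeR).

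**Figure D4:**
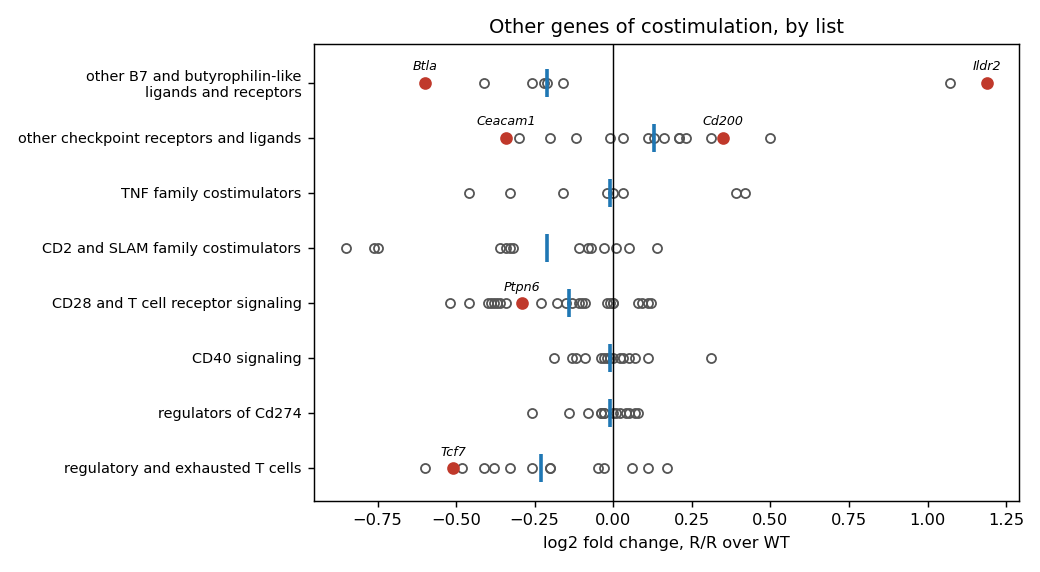
Log2 fold changes of R/R over WT for each tested gene of the other pathway lists, 1 row a list, with the list's median as a blue bar and called genes filled in red. The T cell signaling, CD2 and SLAM, and regulatory T cell lists lie mostly below 0, and the lists of Cd40 signaling and Cd274 regulators are centred near 0.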

How the data were processed

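RNA from the lungs of 6 mice, 3 of each genotype, was sequenced as paired reads. The authors aligned the reads with HISAT2 2.1.0 to mm10 (GRCm38) and deposited unnormalized counts, in which featureCounts 2.0.1 (per the file headers) assigned read pairs to GENCODE M25 genes without regard to strand. The sources differ on the featureCounts version and on RNA extraction (Trizol or RNeasy). One deposited column was recorded here as an estimated count because a unit check misread the comment above it, but it holds whole raw counts like the other 5, and none was rounded. Symbols came from GENCODE M21, matched by identifier (55141 of 56262 genes).

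After filterByExpr (at least 10 counts, 15 in total) and TMM scaling, the quasi-likelihood test of edgeR 4.0.16 (R 4.3.3) was run, with Benjamini-Hochberg adjustment over all 17120 genes. Standard errors were taken from the F statistic. Exact permutation tests used log2 CPM (prior count 0.5). Exon lengths came from the count table. The tests were checked on simulated counts. Alternatives were DESeq2 1.42.0, limma-voom (limma 3.58.1), RLE size factors, library totals alone, no filter beyond 1 count, a filter of 1 CPM in 3 lungs, the replicate number as a block, and each lung left out. The members and the gene lists were chosen with earlier results of these data known. All 10 members are named, and of each pathway list the called genes, and the 3 lowest p where fewer than 3 were called, except 1 gene that is not reported here. The genes most like Icosl and Cd28 were ranked by Pearson's r of log2 CPM among genes whose log2 CPM averaged at least 1. Libraries of 1 genotype differed by a chi-square per degree of freedom of 5.65 to 9.09, and each lung counted as 1 sample. The study calls them biological replicates.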

Additional observations from a re-analysis of the deposited data

How the results depend on the processing

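Over the 7 other tools, scalings, filters and designs, the log2 fold change of Cd40 stayed at -0.38 and its adjusted p ranged from 0.0101 to 0.0528, while that of Icosl ranged from 0.00537 to 0.0652. The number of members called was 1 by edgeR, 2 with DESeq2, 2 with no filter on low counts and 0 with limma-voom, and between 0 and 2 with each lung left out. DESeq2 gave no adjusted p for Pdcd1lg2 and Ctla4, and Ctla4 did not pass the filter of 1 CPM in 3 lungs. The number of all genes called was 300, with 529 for DESeq2 and 1109 for no filter, and between 65 and 621 with each lung left out (621 without WT replicate 3). Lungs with the same number did not deviate together (correlations of -0.0139, -0.00355 and -0.0148). With 3 lungs a group this does not settle whether the numbers pair them. With the replicate block 446 genes were called, among them 1 member, Icosl (adjusted p = 0.0426), whereas Cd40 was at 0.0519. The direction was reversed for Pdcd1lg2 without WT replicate 1 (log2 fold change -0.02) and for Ctla4 without R/R replicate 2 (-0.10) and without WT replicate 1 (-0.12), and the ranges with each lung left out were -0.02 to 0.34 and -0.12 to 0.11. With each lung left out, Tcf7 was called in 6 of 6 cases, Btla and Ceacam1 in 3, Cd200 in 2, Ildr2 in 1 and Ptpn6 in 0 (adjusted p 0.0609 to 0.164). By CPM without length, Icosl ranked above Cd40 and Cd28 above Icos. Depth limits Pdcd1, Ctla4 and Pdcd1lg2, where a single count is a large share of the value.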

Other observations

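Of the receptors, 3 sit in a gene cluster, as do both inhibitory ligands, whereas Pdcd1 lies elsewhere on chromosome 1. Cd28, Ctla4 and Icos follow each other on chromosome 1 with gaps of 114 kb and 62.1 kb, and Cd274 and Pdcd1lg2 on chromosome 19 with a gap of 22.8 kb. Within 300 kb of the first cluster, Raph1 and Abi2 had log2 fold changes of -0.11 and 0.01 (adjusted p = 0.571 and 0.973, edgeR). Around the other, Jak2, which carries interferon signals, Plgrkt and Ric1 were at 0.01, -0.08 and -0.12 (adjusted p = 0.972, 0.801 and 0.418, edgeR). None of the tested genes in either window was called.

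Among 14200 genes whose log2 CPM averaged at least 1, those whose level followed that of Icosl most closely over the 6 lungs were Loxl4, Abca4 and Gorasp1 (Pearson's r 0.988, 0.986 and 0.981). For Cd28 they were Hmgb2, the immunoglobulin light chain gene Igkc and Glt28d2 (0.997, 0.993 and 0.993). Both genes differ in mean between the groups, so these values include that difference, and they are descriptions over 6 points.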
